A study of Mus musculus with 8 samples.

Results

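The Arp2/3 complex, the actin nucleator that starts new filaments from the sides of existing ones, was followed through the transcripts of its 9 subunit genes in cultured lymph node stromal cells. These genes were Arpc1a, Arpc1b, Arpc2, Arpc3, Arpc4, Arpc5, Arpc5l, Actr2 and Actr3, read by every non-control probe that the scanner tables name for them, 11 probes of 41174. Of 28599 gene names on the array, 14861 had signal enough to be tested, and all 9 subunits were among them. The set was chosen by the Arpc1b ratio, which was higher after knockdown, so the knockdown ratios of Arpc1b are a description and carry no test, while the other 8 subunits were taken by complex membership. Stromal cells of BALB/c mice received Eif4g3 siRNA or control siRNA, 400 pmol on each of 7 plates, and were harvested 48 h later. RNA came either from heavy polysomes, the sucrose gradient fractions in which a transcript carries many ribosomes, or from the whole lysate (total RNA). The series holds 4 arrays of heavy polysome RNA and 4 of total RNA, each with Eif4g3 siRNA cells in Cy5 and control siRNA cells in Cy3. The dyes were not swapped, and therefore an effect of the Eif4g3 siRNA and a probe's own dye bias cannot be told apart inside 1 fraction.

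The complex holds a pair of actin-like proteins, Arp2 (gene Actr2) and Arp3 (Actr3), which together mimic the end of an actin filament and seed the daughter filament. Proteins encoded by Arpc2 and Arpc4 form the backbone that clamps onto the mother filament, and those of Arpc1, Arpc3 and Arpc5 complete the assembly. In the mouse the Arpc1 position can be filled by the product of Arpc1a or Arpc1b and the Arpc5 position by that of Arpc5 or Arpc5l. In humans ARPC1B is the form that dominates in blood cells. Branched actin made by the complex pushes out lamellipodia and moves endocytic vesicles, and fibroblast-like cells use it to spread and crawl.

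Eif4g3, the siRNA target, whose product is a scaffold on which eIF4F assembles at the mRNA cap, was lower in Eif4g3 siRNA cells on all 8 arrays. Its log2 ratio of Eif4g3 siRNA over control siRNA averaged -2.46 ± 0.50 in heavy polysome RNA and -2.07 ± 0.29 in total RNA (SD, n = 4 each), with adjusted p of 0.000625 and 0.00208 from limma over all tested genes. Heavy polysome array 1 stood apart through a dim Cy3 channel, in which 37.7% of probes were well above background, against 45.5% to 55.7% on the other heavy polysome arrays. The mean correlation of an array's log2 ratios with the other arrays of its fraction was 0.29, 0.52, 0.32 and 0.57 on heavy polysome arrays 1 to 4. On total RNA arrays 1 to 4 it was 0.41, 0.52, 0.52 and 0.33, lowest on array 4. Heavy polysome arrays 2 and 4 correlated with each other at 0.884, which lifts the means of both. The lower means of heavy polysome arrays 1 and 3 therefore do not by themselves set those arrays apart. Total RNA array 2 was scanned on another day than all other arrays and read with another Feature Extraction version. The summed processed signal of the stromal markers was high on all arrays, at least 157587 in Cy5 and 169033 in Cy3. This sum covers the 9 of 10 markers tested, without Ccl21a, and does not show the level of each marker. Of these 9, 1 was called higher (Cxcl12) and 4 lower (Pdgfra, Pdgfrb, Col1a1 and Col1a2) in heavy polysome RNA, where 8.84% of all genes were called. In total RNA 0 were called higher and 1 lower (Col1a2), where 4.31% of all genes were called. Of 8 macrophage markers 5 were tested, and their summed signal ran from 1065 to 3071 in Cy5 and 1869 to 3600 in Cy3 of heavy polysome RNA, and from 1074 to 2603 in Cy5 and 1389 to 2612 in Cy3 of total RNA. Adgre1, Itgam and Tyrobp, also on the macrophage list, did not have signal enough to be tested. Summed signals of the tested lymphocyte (3 of 8), endothelial (1 of 7) and epithelial markers (4 of 6) were at most 369 in either channel. Whether replicates are separate cultures is not given in the labels, and p-values then measure only the spread between these arrays, which may be technical.

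Arpc1a and Arpc1b, the alternative subunits whose transcripts differed most from each other here, lie next to each other on chromosome 5 with 0 annotated genes between them. Their promoters are printed because the mean ratios of these neighbours had opposite signs in heavy polysome RNA (0.93 for Arpc1b and -0.78 for Arpc1a). In total RNA both means were above 0 (1.22 and 0.17). A link between promoter sequence and these ratios was not tested. Each run below is the 250 bases before the annotated start in RefSeq (GRCm38.p6), plus strand, and capitals mark motifs found by a search of both strands. Of the 9 subunits 8 had a promoter in the table.
Arpc1b, chr5:145114006-145114255: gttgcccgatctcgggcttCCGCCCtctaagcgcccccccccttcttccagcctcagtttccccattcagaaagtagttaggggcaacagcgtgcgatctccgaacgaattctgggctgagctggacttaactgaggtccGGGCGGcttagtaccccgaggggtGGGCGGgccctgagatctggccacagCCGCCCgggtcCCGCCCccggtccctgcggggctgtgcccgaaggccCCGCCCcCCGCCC
Arpc1a, chr5:145083619-145083868: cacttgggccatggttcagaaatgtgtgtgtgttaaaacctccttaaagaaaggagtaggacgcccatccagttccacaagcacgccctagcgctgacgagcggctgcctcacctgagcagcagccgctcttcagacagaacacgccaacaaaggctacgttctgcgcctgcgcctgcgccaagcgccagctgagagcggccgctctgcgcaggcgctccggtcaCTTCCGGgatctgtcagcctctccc

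The Arpc1b window held 7 matches to the GC box GGGCGG, and the Arpc1a window held 0. The Arpc1a window held 1 match to the ETS motif CCGGAAG, and the Arpc1b window held 0. Among 32851 mouse promoter windows of the same length, 32.7% held a GC box and 6.91% the ETS motif, and neither window held CCAAT (33.8% of windows), TATAAA (12.4%), CACGTG (6.02%), TGACGTCA (1.55%) or a CArG box (1.47%). These matches describe letters and not binding sites. Of the other 6 subunits with a window, Actr2, Actr3, Arpc2 and Arpc5 held GC boxes, and Actr2, Actr3, Arpc3 and Arpc4 held the ETS motif.

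Arpc1b, which encodes a propeller-shaped subunit that touches activators of the complex, was read by probe A_51_P331279 (mm8 chromosome 5, 145381449 to 145381508). In heavy polysome RNA its log2 level on arrays 1 to 4 was 15.20, 15.36, 16.18 and 15.62 in Eif4g3 siRNA cells, against 14.59, 14.56, 14.82 and 14.66 in control siRNA cells. In total RNA the levels were 15.03, 15.37, 15.51 and 16.71 in Eif4g3 siRNA cells, against 14.64, 13.91, 14.45 and 14.75 in control siRNA cells. On each array the Eif4g3 siRNA level lay above the control siRNA level, which is a description, since these values chose the set. The log2 ratios on heavy polysome arrays 1 to 4 were 0.61, 0.80, 1.36 and 0.95, a mean of 0.93 ± 0.32 (SD, n = 4) or 1.91-fold higher. On total RNA arrays 1 to 4 they were 0.39, 1.45, 1.07 and 1.96, a mean of 1.22 ± 0.66 (SD, n = 4) or 2.33-fold higher. All 8 ratios were above 0, as were those of 6.11% of all genes, and total RNA array 4 gave the highest ratio and array 1 the lowest. Since the Arpc1b ratio chose the set, this percentage is printed as a description only. The probe was very bright, with a mean signal of 64713 in Cy5 on total RNA array 4 and 60072 in Cy3 on total RNA array 1. Saturated pixels were 0% in both channels on every array. The part of such bright signal in these ratios was not tested. Under 20 other settings each, the mean log2 ratio stayed between 0.79 and 1.04 in heavy polysome RNA. In total RNA it stayed between 0.97 and 1.49, the last without total RNA array 1. Several of these settings cannot move either mean, among them filter choices and averaging of probes where a single probe reads the gene. Leaving out arrays of the other fraction cannot move it either. In bulk RNA, fewer cells of a type and less RNA per cell cannot be told apart. Of the 5 tested macrophage markers 0 were called in heavy polysome RNA, and 0 were called higher and 1 lower in total RNA (Csf1r, -0.57 ± 0.30, SD, n = 4, limma adjusted p = 0.0448). Their median log2 ratios were -0.35 in heavy polysome RNA and -0.23 in total RNA. The part of stromal and macrophage markers in the subunit ratios was not tested.

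**Figure D1:**
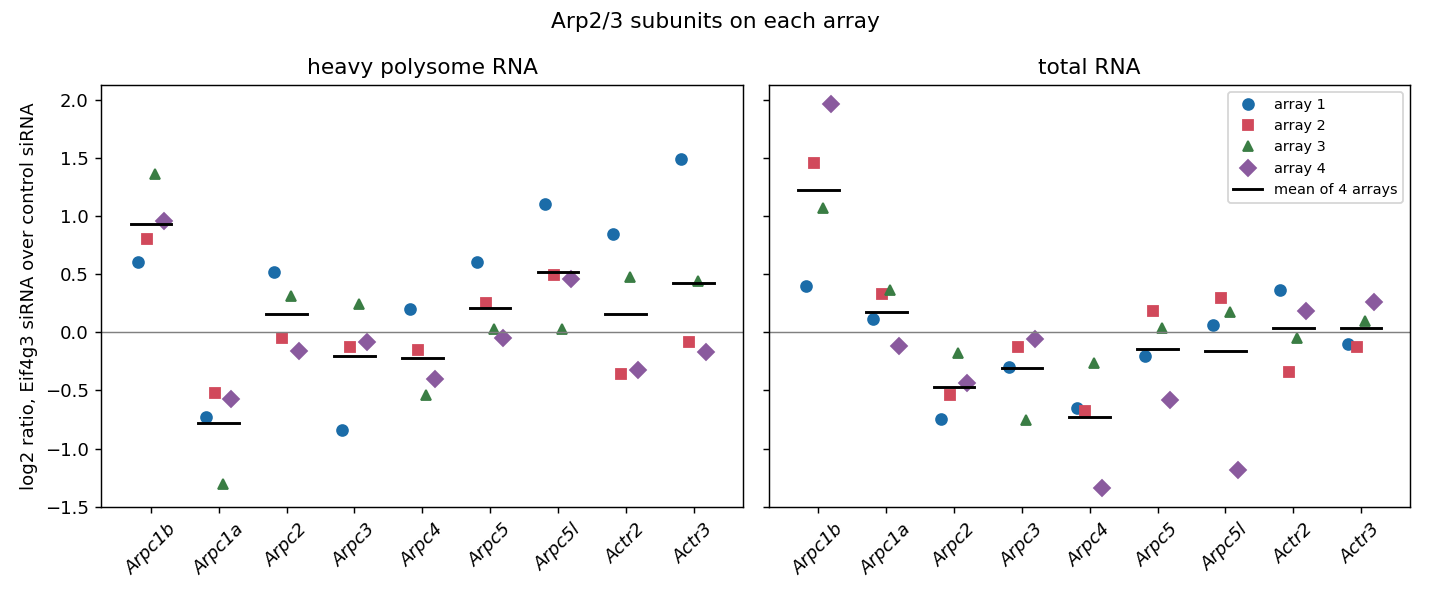
Log2 ratio of Eif4g3 siRNA over control siRNA for each subunit on each array, with heavy polysome RNA on the left and total RNA on the right. Symbols are arrays 1 to 4 and black lines are means; Arpc1b lies above 0 on all 8 arrays, and Arpc1a lies below 0 on all 4 heavy polysome arrays with a mean of -0.78 there.

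Arpc1a, which encodes the alternative form of the same subunit, was lower on heavy polysomes of Eif4g3 siRNA cells. Probe A_51_P191586 (mm8 chromosome 5, 145360611 to 145361911) gave log2 levels of 10.32, 10.66, 10.19 and 10.71 in heavy polysome RNA of Eif4g3 siRNA cells, against 11.05, 11.18, 11.49 and 11.28 in that of control siRNA cells. On each of the 4 arrays the Eif4g3 siRNA level was the lower of the pair, as it was for 14.6% of genes. The log2 ratios on heavy polysome arrays 1 to 4 were -0.72, -0.52, -1.30 and -0.58, and the mean of -0.78 ± 0.36 (SD, n = 4) was 1.72-fold lower (95% interval -1.09 to -0.47, adjusted p = 0.0104, limma with Benjamini-Hochberg adjustment over 14861 genes). In total RNA the log2 ratios on arrays 1 to 4 were 0.11, 0.32, 0.36 and -0.12, of both signs, and the mean of 0.17 ± 0.22 (SD, n = 4) did not pass the threshold of 0.05 (adjusted p = 0.515). The heavy polysome call held without each single array and was lost with each fraction fitted alone (adjusted p = 0.0573) and with median centring in place of loess (0.0854). Arpc1a and Arpc1b were each read by 1 probe, so no second probe checks either.

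Set against the rest of the complex, Arpc1b had the highest log2 ratio of the 9 subunits on 7 of 8 arrays. The exception was heavy polysome array 1, where it ranked 4. Its log2 ratio minus the median log2 ratio of the other 8 subunits was 0.04, 0.91, 1.22 and 1.12 on heavy polysome arrays 1 to 4, a mean of 0.82 ± 0.53 (SD, n = 4). On total RNA arrays 1 to 4 the same difference was 0.55, 1.58, 1.08 and 2.24, a mean of 1.36 ± 0.72 (SD, n = 4). Heavy polysome array 1 was the low value, and without it the heavy polysome mean was 1.08. Arpc1b minus Arpc1a was 1.33, 1.33, 2.66 and 1.53 on heavy polysome arrays 1 to 4 (1.71 ± 0.64, SD, n = 4), against 0.28, 1.13, 0.71 and 2.08 on total RNA arrays 1 to 4 (1.05 ± 0.77, SD, n = 4). Every one of these differences was above 0, and the fractions overlapped. These differences carry no test, because Arpc1b was chosen for being higher.

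**Figure D2:**
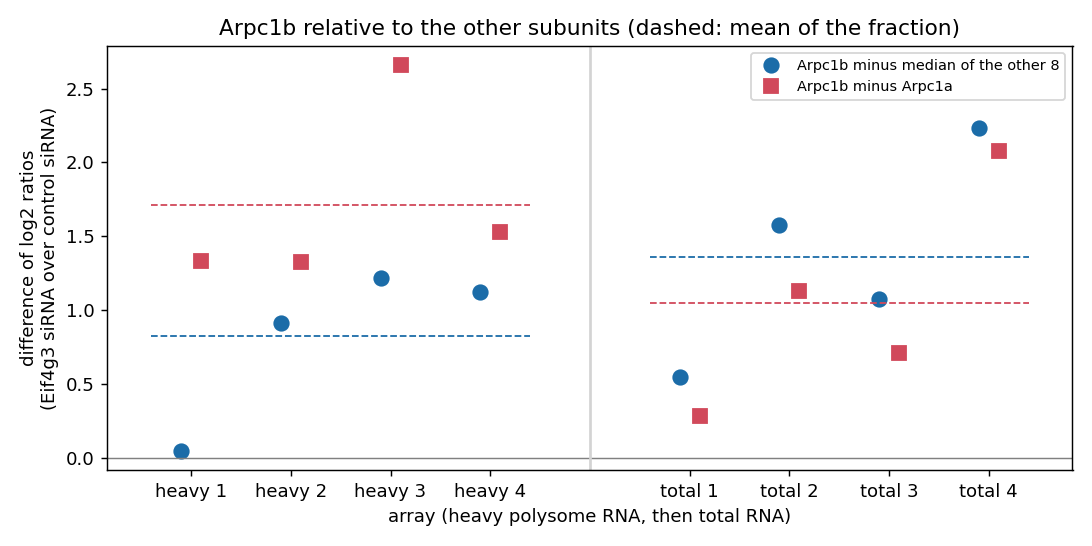
Difference between the log2 ratio of Arpc1b and the median of the other 8 subunits (circles) or Arpc1a (squares) on each array, heavy polysome arrays first. Dashed lines are means of a fraction; heavy polysome array 1 is the only array where Arpc1b lies close to the median of the others (0.04).

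Of the 8 other subunits, 0 were called higher and 1 was called lower in heavy polysome RNA, where 8.84% of all tested genes were called (4.83% higher, 4% lower). In total RNA 0 were called higher and 1 was called lower, where 4.31% of genes were called (1.67% higher, 2.64% lower). These shares give no ground to set the 8 subunits apart from other genes. The median log2 ratio of the 8 was 0.16 in heavy polysome RNA and -0.15 in total RNA, against 0.02 and -0.04 over all tested genes. In heavy polysome RNA the log2 ratio was above 0 on all 4 arrays for 2 of the 9 subunits, Arpc1b and Arpc5l (17.2% of genes), and below 0 on all 4 for Arpc1a (14.6%). In total RNA it was above 0 on all 4 arrays for Arpc1b (13.2%) and below 0 on all 4 for 3 of the 9 subunits, Arpc2, Arpc3 and Arpc4 (21.6%).

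The filament-seeding subunits varied more between heavy polysome arrays than between total RNA arrays and did not pass the threshold. Actr3, which encodes Arp3, had log2 ratios of 1.49, -0.08, 0.44 and -0.17 on heavy polysome arrays 1 to 4 (0.42 ± 0.76, SD, n = 4, limma adjusted p = 0.291). On total RNA arrays its log2 ratios were -0.10, -0.12, 0.10 and 0.26 (0.03 ± 0.18, SD, n = 4, limma adjusted p = 0.955). Array 1 was the high one among the heavy polysome arrays. Actr2, which encodes Arp2, had log2 ratios of 0.84, -0.36, 0.48 and -0.33 in heavy polysome RNA (0.16 ± 0.60, SD, n = 4, limma adjusted p = 0.670), with arrays 1 and 3 above 0. In total RNA its ratios were 0.36, -0.34, -0.05 and 0.18 (0.04 ± 0.30, SD, n = 4, limma adjusted p = 0.937). On heavy polysome array 1, the one with the dim Cy3 channel, the median log2 ratio of the other 8 subunits was 0.56, against -0.17 to 0.14 on heavy polysome arrays 2 to 4, and the part of the dim channel in this was not tested. Actr3b, a paralogue of Actr3, was not well above background on any array.

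Of the backbone subunits, Arpc4 was called lower in total RNA, and the call depended on the probe. Arpc4 probe A_52_P185485 (mm8 chromosome 6, 113355126 to 113355185) gave log2 ratios of -0.65, -0.68, -0.26 and -1.34 on total RNA arrays 1 to 4, all below 0 (-0.73 ± 0.45, SD, n = 4, 1.66-fold lower, limma adjusted p = 0.0456). Its dimmer second probe, A_51_P306647 (113354812 to 113354871), gave 0.03, 0.05, -0.12 and -0.15 on the same arrays (-0.05 ± 0.10, SD, n = 4), so the probes disagree. Leaving out total RNA array 1, 2, 3 or 4 ended the call (limma adjusted p = 0.117, 0.125, 0.0746 and 0.12), as did leaving out heavy polysome array 2 (0.0772) or 4 (0.0769) and averaging both probes (0.102). In heavy polysome RNA the first probe had log2 ratios of 0.20, -0.16, -0.54 and -0.40 (-0.22 ± 0.32, SD, n = 4, limma adjusted p = 0.457) and the second 0.22, 0.15, -0.48 and -0.02 (-0.03 ± 0.31, SD, n = 4). Arpc2, whose product clamps onto the mother filament with that of Arpc4, had log2 ratios of -0.74, -0.54, -0.18 and -0.43 on total RNA arrays (-0.47 ± 0.24, SD, n = 4), which did not pass (limma adjusted p = 0.0729, and 0.04 without heavy polysome array 1). On heavy polysome arrays its ratios were 0.52, -0.05, 0.31 and -0.16, of both signs (0.15 ± 0.32, SD, n = 4, limma adjusted p = 0.511).

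The remaining subunits did not pass in either fraction. Arpc3, a small subunit that contacts Arp3, had log2 ratios of -0.84, -0.13, 0.25 and -0.08 on heavy polysome arrays (-0.20 ± 0.46, SD, n = 4) and -0.30, -0.13, -0.76 and -0.06 on total RNA arrays (-0.31 ± 0.31, SD, n = 4), with limma adjusted p of 0.506 and 0.324. Its second probe gave -0.26 ± 0.35 and -0.47 ± 0.29 (SD, n = 4 each), so the probes gave the same sign in both fractions. Arpc5, which encodes the subunit at the contact with Arp2, had log2 ratios of 0.61, 0.25, 0.03 and -0.05 on heavy polysome arrays (0.21 ± 0.29, SD, n = 4, limma adjusted p = 0.405). On total RNA arrays Arpc5 had -0.20, 0.18, 0.03 and -0.58, of both signs (-0.14 ± 0.33, SD, n = 4, limma adjusted p = 0.616). Its paralogue Arpc5l had log2 ratios of 1.1, 0.49, 0.03 and 0.46 on heavy polysome arrays, all above 0 (0.52 ± 0.44, SD, n = 4, limma adjusted p = 0.209). On total RNA arrays Arpc5l had 0.06, 0.30, 0.17 and -1.18, with array 4 far below the others (-0.16 ± 0.69, SD, n = 4, limma adjusted p = 0.75). Arpc5l minus Arpc5 was 0.31 ± 0.24 in heavy polysome RNA and -0.02 ± 0.39 in total RNA (SD, n = 4 each).

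The difference between the fractions asks whether the knockdown ratio on heavy polysomes departed from that in total RNA. For Arpc1b this difference is built from the ratios that chose the set, so it is a description and carries no test. Of the other 8 subunits 0 passed in limma, as did 0% of all tested genes (784 genes, or 5.28%, had an unadjusted p under 0.05). The heavy polysome minus total RNA difference of Arpc1a was -0.95 (95% interval -1.39 to -0.52, unadjusted p = 0.000718, limma adjusted p = 0.845). All 4 heavy polysome ratios of Arpc1a lay below all 4 total RNA ratios, a pattern of 1.21% of genes, and all 4 of Arpc2 lay above, a pattern of 2.4% of genes. For Arpc2 the difference was 0.63 (95% interval 0.21 to 1.04, limma adjusted p = 0.845), and for Arpc1b it was -0.29. Differences of the other 6 subunits ran from 0.11 for Arpc3 to 0.68 for Arpc5l, and each of their 95% intervals included 0. Each slide held arrays of a single fraction, so fraction and slide cannot be told apart here or in the comparison of levels between fractions.

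**Figure D3:**
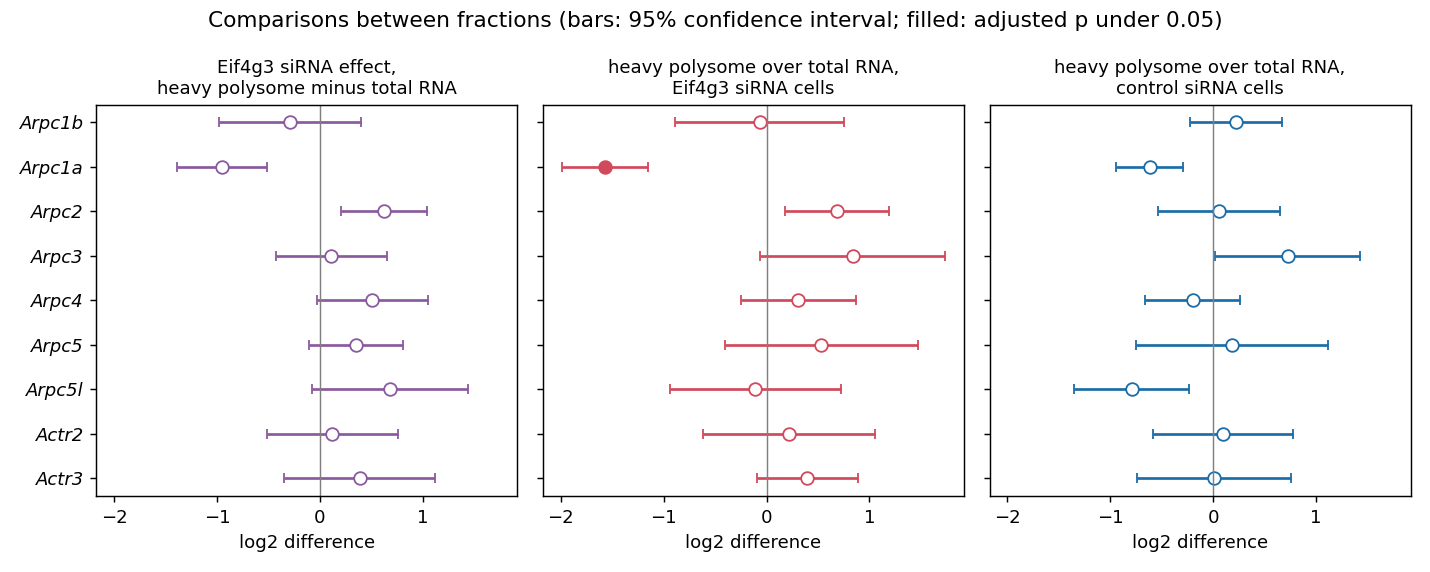
Log2 differences between heavy polysome and total RNA for each subunit, as the difference of the Eif4g3 siRNA effect (left), in Eif4g3 siRNA cells (middle) and in control siRNA cells (right), from 4 arrays a fraction. Bars are 95% intervals and filled circles passed the threshold. Arpc1a in Eif4g3 siRNA cells is the only filled one, and Arpc1b on the left is a description, since its ratios chose the set.

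How far each transcript sat on heavy polysomes was read from the level in heavy polysome RNA over that in total RNA within each siRNA group. In Eif4g3 siRNA cells Arpc1a was 2.96-fold lower in heavy polysome RNA than in total RNA. Its log2 levels were 10.32, 10.66, 10.19 and 10.71 in heavy polysome RNA, against 12.0, 12.15, 12.17 and 11.82 in total RNA. The fractions did not overlap (5.4% of genes lay lower without overlap), and the difference of -1.57 (95% interval -1.99 to -1.15) passed the threshold (limma adjusted p = 0.0156), as did 0.155% of all genes, each of them lower in heavy polysome RNA. Equal RNA mass was labelled, so each difference is relative to the other transcripts of the sample. The call was lost without total RNA array 2 or 3 (limma adjusted p = 0.0531 and 0.0608) and without any 1 of the heavy polysome arrays 1 to 4 (0.103, 0.0676, 0.0547 and 0.0580), while the difference stayed between -1.74 and -1.47 under 15 other settings.

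In control siRNA cells Arpc1a levels were 11.05, 11.18, 11.49 and 11.28 in heavy polysome RNA, against 11.88, 11.82, 11.81 and 11.94 in total RNA. Here too the fractions did not overlap (8.52% of genes), and the difference was -0.62 (95% interval -0.94 to -0.29, limma adjusted p = 0.0670). Of the 9 subunits 0 passed in control siRNA cells, where 2.28% of genes did (at an unadjusted p under 0.05, 3 of the 9 subunits and 12.4% of genes). For Arpc1b the difference was -0.07 in Eif4g3 siRNA cells (95% interval -0.89 to 0.75) and 0.22 in control siRNA cells (-0.22 to 0.67), and both intervals included 0. Arpc2 levels were 12.78, 12.71, 13.21 and 12.94 in heavy polysome RNA of Eif4g3 siRNA cells, against 12.62, 11.88, 12.49 and 11.93 in their total RNA, without overlap (2.67% of genes), and the difference of 0.68 did not pass (limma adjusted p = 0.272). Arpc5l levels in control siRNA cells were 9.89, 10.72, 10.90 and 10.86 in heavy polysome RNA, against 11.74, 11.22, 11.42 and 11.16 in total RNA, also without overlap, and the difference of -0.79 did not pass (limma adjusted p = 0.184). Arpc1b and the remaining 5 subunits overlapped between fractions in both siRNA groups.

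**Figure D4:**
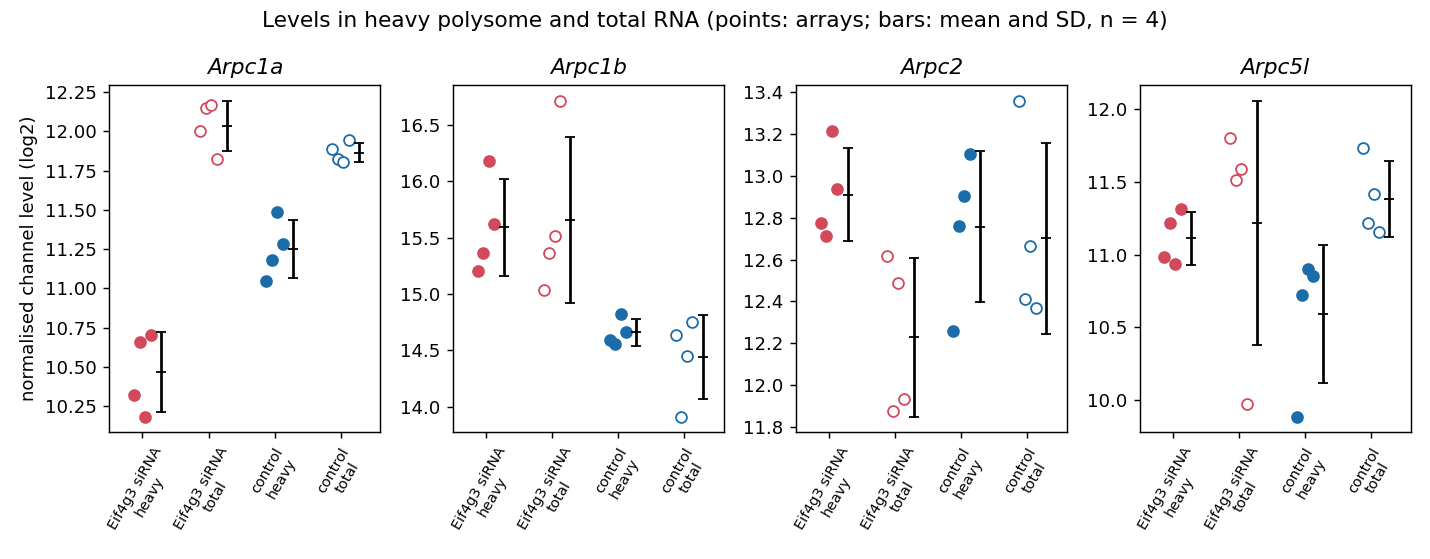
Normalised log2 levels of Arpc1a, Arpc1b, Arpc2 and Arpc5l in heavy polysome RNA (filled) and total RNA (open) of Eif4g3 siRNA cells and then control siRNA cells. Points are arrays and bars are means and SD of 4 arrays; the Arpc1a fractions do not overlap in either siRNA group, and each panel has its own axis.

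Around the complex, 72 other actin genes in lists of activators, inhibitors and filament proteins were examined, of which 66 were tested. In heavy polysome RNA 7 were higher and 7 lower in Eif4g3 siRNA cells (against 8.84% of all genes called), and in total RNA 2 were higher and 1 lower (against 4.31%). The median log2 ratio of the 66 was -0.08 in heavy polysome RNA and -0.12 in total RNA. Without heavy polysome array 1 and total RNA array 2, 3 were higher and 6 lower in heavy polysome RNA, and 1 was higher and 1 lower in total RNA. Median centring in place of loess gave 0 higher and 1 lower in each fraction. With heavy polysome arrays 2 and 4 averaged, 2 were higher and 2 lower in heavy polysome RNA, and 0 higher and 1 lower in total RNA. Among proteins that switch the complex on, Hcls1, a cortactin relative of blood cells, had log2 ratios of -1.01, -0.77, -0.86 and -0.99 on heavy polysome arrays. It was lower there by -0.91 ± 0.12 (SD, n = 4, limma adjusted p = 0.0036), and in total RNA it was at -0.45 ± 0.28 (SD, n = 4, limma adjusted p = 0.0534). It was the only call among 10 tested nucleation-promoting factors.

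Of 7 tested genes of the WAVE complex, which switches Arp2/3 on at the leading edge, Abi2 rose in both fractions. Its log2 ratio was 0.68 ± 0.07 in heavy polysome RNA (SD, n = 4, limma adjusted p = 0.0047) and 0.43 ± 0.21 in total RNA (SD, n = 4, limma adjusted p = 0.0390). Of 5 genes of the WASH complex, which activates Arp2/3 on endosomes, Washc5 fell in both fractions, at -0.53 ± 0.19 in heavy polysome RNA (SD, n = 4, limma adjusted p = 0.0150) and -0.54 ± 0.17 in total RNA (SD, n = 4, limma adjusted p = 0.0243). Among 9 tested inhibitors and branch-removing proteins, Arpin, which holds the complex inactive, rose in heavy polysome RNA (0.86 ± 0.56, SD, n = 4, limma adjusted p = 0.0265). On arrays 1 to 4 Arpin had log2 ratios of 1.18, 0.32, 1.47 and 0.46, with arrays 1 and 3 the high ones. Coro7, a coronin of the Golgi, fell in heavy polysome RNA (-0.71 ± 0.20, SD, n = 4, limma adjusted p = 0.0077). In total RNA 0 of these 9 passed.

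Of the genes that supply, cap and elongate filaments, 9 were called in heavy polysome RNA and 1 in total RNA. Over all tested genes the called shares were 8.84% and 4.31%. Of 14 monomer-binding genes and actins, the filament-severing Dstn (1.04 ± 0.88), the monomer buffer Tmsb4x (0.90 ± 0.80) and the profilin gene Pfn2 (0.73 ± 0.52) rose in heavy polysome RNA (SD, n = 4 each, limma adjusted p = 0.0399, 0.0451 and 0.0340). Heavy polysome array 1 gave the highest value of each, 2.35 for Dstn, 1.63 for Tmsb4x and 1.48 for Pfn2, and Tmsb4x lay at -0.24 on array 3. Of 7 capping protein genes, Eps8 was called lower in heavy polysome RNA (-0.48 ± 0.36, SD, n = 4, limma adjusted p = 0.0493), although array 1 lay at 0.06. Of 14 formins and Ena/VASP genes, which build unbranched filaments, Evl (0.75 ± 0.22) and Fhod3 (0.42 ± 0.13) rose in heavy polysome RNA, and Diaph3 (-0.46 ± 0.24), Fhod1 (-0.44 ± 0.07) and Fmnl3 (-0.40 ± 0.14), the last named after its value was seen, fell. In total RNA Enah rose (0.49 ± 0.13, SD, n = 4, limma adjusted p = 0.0405). Only 3 of the 14 heavy polysome calls, Hcls1, Abi2 and Coro7, held without each single array (highest limma adjusted p 0.0271, 0.0301 and 0.0458). The other 11 were lost without at least 1 array, Washc5 without heavy polysome array 2 or 4 (up to 0.0612) and Arpin without array 1, 3 or 4 (up to 0.0770), and 0 of the 3 total RNA calls held without each single array.

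**Figure D5:**
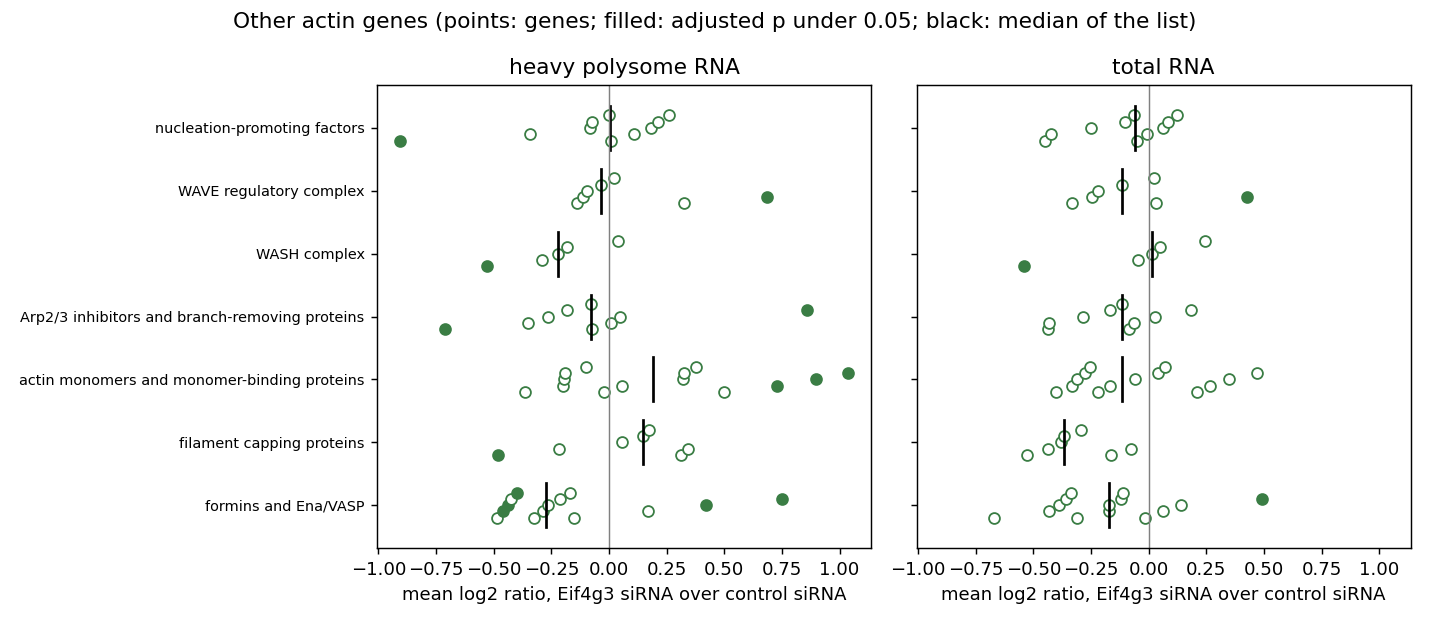
Mean log2 ratio of Eif4g3 siRNA over control siRNA for 66 other actin genes by list, heavy polysome RNA on the left and total RNA on the right, 4 arrays each. Filled points passed the threshold and black lines are medians of a list; called genes lie on both sides of 0 in heavy polysome RNA (7 higher, 7 lower).

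Across the 8 arrays, Pearson's r with the Arpc1b ratio was -0.73 for Arpc5l, -0.72 for Arpc4, -0.53 for Arpc5, 0.06 for Arpc1a and 0.47 for Arpc3, and the rest lay between. The genes whose 8 ratios were most like those of Arpc1b, among 14851 genes, were Tpmt (r = 0.975), Pkd1 (0.973), Fyco1 (0.964), Dst (0.963) and Cacng7 (0.958). These correlations pool both fractions and all ratios on an array share its RNA samples and dyes, so they are given as a description. Their levels of change were small beside that of Arpc1b: the mean log2 ratios of these 5 genes ran from -0.30 for Dst to 0.12 for Cacng7 in heavy polysome RNA and from -0.19 for Tpmt to 0.16 for Cacng7 in total RNA.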

How the data were processed

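Agilent 2-colour arrays measured RNA of Eif4g3 siRNA cells (Cy5) and control siRNA cells (Cy3). Per the file headers, the deposited scanner tables hold spot and background signals as intensity, and Feature Extraction 10.7.3.1 (protocol GE2_107_Sep09) made them, except total RNA array 2 (10.5.1.1, GE2_105_Dec08). The same deposited tables hold processed signals and log10 ratios, red over green. In the deposited series matrix the same ratio is on the log2 scale, within 0.01 for at least 99.755% of 41267 probes on each array. That table served as a check, with array medians from -0.21 to 0.31.

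Mean signals were background-corrected with normexp (offset 50) and normalised by loess (span 0.3). The brightest probe stood for its gene, and a gene was tested if well above background in either channel on at least 3 of 4 arrays of a fraction. Means were tested with limma 3.58.1 (R 4.3.3), 1 coefficient per fraction over 8 arrays, two-sided, Benjamini-Hochberg adjusted, threshold 0.05. Levels within a channel came from loess and Aquantile normalisation. Symbols were updated through RefSeq (GRCm38.p6), which matched 73.1% of probes. Probe coordinates are mm8. Plots used Python 3.11.15 and matplotlib 3.10.9. The limma step was tested on simulated data.

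The members, gene lists and tests were chosen with earlier results of these data known, and 1 gene list is not reported here. Named genes were all subunits, Eif4g3, from each actin list up to 4 called members (largest change first) or else the 2 largest, and the 5 genes most like Arpc1b. The number of arrays limits the precision. Alternatives were background, normalisation, probe and filter choices, slide, a replicate block and arrays left out.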

Additional observations from a re-analysis of the deposited data

Results flagged for a closer look

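Of 18 sets of 4 arrays (9 subunits in each fraction), 1 held an array far from the other 3. The Arpc5l log2 ratio on total RNA array 4 was -1.18, and the nearest of the others was 0.06, a gap of 0.844 of the whole range. Chance flags about 1 in 20 groups. Without that array the total RNA mean of Arpc5l was 0.18, and the gene passed the threshold with neither set of arrays.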

How the results depend on the processing

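Arpc1b kept its direction in both fractions under all 20 other settings. Several of these settings, such as filter choices or leaving out arrays of the other fraction, cannot move a gene's mean ratio. The Arpc1b log2 ratio minus the median of the other 8 subunits ran from 0.69 to 1.08 in heavy polysome RNA and from 1.07 to 1.63 in total RNA with 1 array left out. Arpc1a stayed lower in heavy polysome RNA under 20 of 20 settings and was called in 18, whereas Arpc4 in total RNA was called in 7 of 20 and Arpc1a in heavy polysome over total RNA of Eif4g3 siRNA cells in 6 of 15. With 1 array left out, 0 to 2 of the other subunits were called in total RNA, 1 in heavy polysome RNA and 0 in the difference. Between fractions, 0 to 1 of all 9 were called in Eif4g3 siRNA cells and 0 in control siRNA cells.

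Over all genes, 1313 were called in heavy polysome RNA, 640 in total RNA, 0 in the difference, 23 between fractions in Eif4g3 siRNA cells and 339 in control siRNA cells. With 1 array left out these counts ran from 352 to 1552, from 52 to 1350, 0 throughout, from 3 to 92 and from 79 to 341, and such fits have fewer arrays. Processed signals gave 2078 in heavy polysome and 1481 in total RNA, of which 808 were higher and 673 lower, against 248 higher and 392 lower in the setting reported. Median centring gave 193 in heavy polysome RNA (86 of them higher, against 718 of 1313) and 214 in total RNA (43 higher, 171 lower), with 0 of the other subunits in either. Slide as a random block gave 2639 and 1497, with 2 of the other subunits in total RNA, Arpc4 and Arpc2 (adjusted p = 0.0297). Each fraction fitted alone gave 387 in heavy polysome RNA and 0 of the other subunits in either fraction. The mean of all probes and no signal filter each left 0 in total RNA. Between fractions in Eif4g3 siRNA cells an offset of 16 gave 57, the mean of all probes 45 and processed signals minus the 75th percentile 190. Averaging heavy polysome arrays 2 and 4 (r = 0.884) gave 450 in heavy polysome, 303 in total RNA, 3 in Eif4g3 siRNA cells and 137 in control siRNA cells, with 0 of the other subunits in total RNA and 0 of 9 in Eif4g3 siRNA cells. Leaving out total RNA array 2 and heavy polysome array 1, chosen after seeing the data, gave 792, 397 and, in Eif4g3 siRNA cells, 0, with 0 of the other subunits in total RNA and 0 of 9 in Eif4g3 siRNA cells. The cause was not tested.

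Whether same-numbered total RNA and heavy polysome arrays share a culture is not given in the labels. Their deviations from the fraction mean correlated at -0.02, 0.17, -0.11 and -0.30. Differently numbered pairs ran from -0.51 to 0.47, so these values cannot settle the pairing. A replicate block gave 592 in heavy polysome RNA, 205 in total RNA, 10 in Eif4g3 siRNA cells and 64 in control siRNA cells, with 0 of the other subunits in total RNA, 1 in heavy polysome RNA (Arpc1a, adjusted p = 0.0424) and 0 of 9 in Eif4g3 siRNA cells (Arpc1a, 0.0929). Of the 66 other actin genes the block gave 2 higher and 2 lower in heavy polysome RNA and 0 in total RNA, and each fraction fitted alone gave 2 higher and 2 lower in heavy polysome RNA and 2 higher and 3 lower in total RNA.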
